A study of Mus musculus with 6 samples.

Results

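Hyaluronan is a long sugar polymer of the skin matrix, and 9 mouse genes for its synthesis, binding and breakdown were followed here in dermal fibroblasts with and without endothelin 1 (Et1), a short signalling peptide best known for constricting blood vessels. The members are the synthases Has1, Has2 and Has3, the binding proteins Cd44, Tnfaip6 and Vcan, and the breakdown genes Cemip, Hyal1 and Hyal2. They were taken as probe sets, groups of short probes for 1 transcript, that the platform annotation pairs with exactly 1 gene symbol. This gave 21 probe sets for 8 of the 9 genes, out of 18193 genes with such a probe set on the array. Hyal1 had 0 probe sets of its own and shared 2 with Naa80, so no value is given for it. The genes were chosen by function and selected on the measured Et1 minus control signals of these same 6 arrays, in which Cemip stood out, so the Et1 differences of the members below describe these arrays and give no independent support for any direction.

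The cells were primary fibroblasts grown from the dermis of B6 pups aged 0 to 2 days, of mixed sex, and were at passage 6, as the sample labels give it; the series text gives an age of 0 to 3 days and a split into cultures by passage 5. Control cultures received no addition, and Et1 cultures received 100 nM of the synthetic peptide for 24 hours in the same serum-containing medium. There were 3 control and 3 Et1 arrays (Affymetrix Mouse430_2), called biological replicates in the labels, which do not name the animals or say how many pups made up a culture. The p-values therefore measure the spread between these arrays, and the 3 arrays per group limit the precision of every value.

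Hyaluronan is spun out through the plasma membrane by the Has enzymes from activated sugars made in the cytosol. Outside the cell it is held by receptors such as Cd44 and organised by proteins that carry a hyaluronan-binding link module, among them Vcan and Tnfaip6. Large chains are cut by Cemip (also called KIAA1199 or HYBID), the hyaluronan depolymerase known from dermal fibroblasts, and by hyaluronidases such as Hyal2, which works at the cell surface, and Hyal1, which works in lysosomes.

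Sequence just upstream of the start of 7 of the 9 members was found in the RefSeq promoter table (GRCm38.p6), and the 250 bases before the start were searched on both strands for 8 motifs. The sequences of Cemip, Tnfaip6 and Vcan are shown because each of these genes had a probe set whose Et1 arrays all lay below the control arrays, and that of Cd44 because its groups overlapped in every tested probe set. They lie at chr7:84086506-84086755 (minus strand), chr2:52037863-52038112 (plus strand), chr13:89742513-89742762 (minus strand) and chr2:102901666-102901915 (minus strand), and capitals mark motif matches.
Cemip: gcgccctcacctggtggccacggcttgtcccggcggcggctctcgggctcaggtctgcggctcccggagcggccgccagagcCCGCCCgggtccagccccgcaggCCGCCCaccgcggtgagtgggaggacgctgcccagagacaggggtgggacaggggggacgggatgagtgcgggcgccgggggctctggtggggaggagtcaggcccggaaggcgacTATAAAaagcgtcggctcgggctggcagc 
Tnfaip6: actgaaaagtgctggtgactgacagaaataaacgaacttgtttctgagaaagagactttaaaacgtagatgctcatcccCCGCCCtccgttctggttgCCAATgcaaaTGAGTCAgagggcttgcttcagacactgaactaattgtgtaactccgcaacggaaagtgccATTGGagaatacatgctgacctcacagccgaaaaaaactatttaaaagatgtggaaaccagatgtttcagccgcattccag 
Vcan: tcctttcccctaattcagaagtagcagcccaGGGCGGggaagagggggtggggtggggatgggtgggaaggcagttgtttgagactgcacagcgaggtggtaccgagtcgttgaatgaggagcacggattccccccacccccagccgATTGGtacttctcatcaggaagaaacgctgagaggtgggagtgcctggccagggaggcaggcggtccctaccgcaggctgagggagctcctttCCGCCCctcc 
Cd44: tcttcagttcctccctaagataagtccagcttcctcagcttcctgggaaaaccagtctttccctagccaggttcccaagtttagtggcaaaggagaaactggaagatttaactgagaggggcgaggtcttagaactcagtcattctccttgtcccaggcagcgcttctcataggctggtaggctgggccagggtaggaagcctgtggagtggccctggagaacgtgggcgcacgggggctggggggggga
The Cemip sequence holds a TATA box (TATAAA) whose first base lies 29 bases before the start, and 2 GC boxes (GGGCGG, here on the other strand). That of Tnfaip6 holds the AP-1 site TGAGTCA at 142 bases before the start, with 1 GC box and 2 CCAAT boxes. Vcan holds 2 GC boxes and 1 CCAAT box, and Cd44 holds none of the 8 motifs. Of 32841 upstream sequences of this length in the table, 12.4% hold the TATA box, 4.46% the AP-1 site, 32.7% the GC box and 33.9% the CCAAT box. Of the sequences not shown, Has1 holds a cAMP response element (TGACGTCA, in 1.55% of all) and a CCAAT box. Hyal2 holds an NF-kappaB consensus match (7.97% of all) and a GC box. Hyal1 holds GC boxes at 72 and 77 bases before the start and a CCAAT box. Neither the E-box CACGTG (6.02% of all) nor the CArG box (1.47% of all) was found in any of the 7. The Cemip sequence has 75.2% G and C, against a median of 52.4% over the table. These matches describe the letters only, and binding to them was not measured.

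Arrays were scaled to a common 2% trimmed mean of 139, since the deposited means ran from 91.7 to 179. Testing was limited to probe sets with a mean signal of at least 41.0 over the 6 arrays, the median of all. Fibroblast markers fitted the label, with 10 of 11 at or above that filter and Vim and Col1a2 at 6833 to 10130 and 3055 to 6878. Lum, at 21.8 to 51.7, was the one below it. The summed fibroblast markers ran from 23178 to 39381 without and from 16583 to 29330 with Et1. All of the 10 tested but Vim (log2 difference 0.02) had lower Et1 means, beside 44.3% of all genes. These differences ran from -0.26 (Dcn) to -1.26 (Col3a1), with Thy1 at -1.18 and Pdgfrb at -1.14. Some defining markers of other cells were near the floor, such as Pecam1 (at most 12.7, endothelium), Ptprc (at most 30.0, leukocytes) and Krt1 (at most 17.5, keratinocytes). Others of the same lists were above the filter, such as Flt4 (102 to 178), Csf1r (126 to 178) and Krt5 (111 to 169). Of 5 melanocyte and 5 pericyte or smooth muscle markers, 3 each reached the filter, with sums that overlapped between the groups. Of 9 endothelial, 8 leukocyte and 8 keratinocyte markers measured, 3, 4 and 5 reached the filter, and their sums were 251 to 281, 334 to 418 and 373 to 560 without Et1, against 310 to 398, 365 to 444 and 421 to 505 with it. The endothelial sums did not overlap between the groups. The same held for skeletal muscle (2 of 4 markers at the filter, 2276 to 2567 against 2731 to 2966, with Acta1 at 2143 to 2777), mast cells (1 of 3, 88.5 to 113 against 57.4 to 81.1) and Schwann cells (1 of 1 measured, 54.7 to 95.8 against 37.0 to 51.7). No marker in any list passed the Et1 test, and the part of these cells in the results was not tested. In such bulk samples fewer cells of a type and less RNA per cell cannot be told apart. The 3' to 5' signal ratio of Gapdh, a sign of RNA integrity, was 0.728 to 0.775 without and 0.677 to 0.757 with Et1. That of Actb was 1.18 to 1.19 without and 1.15 to 1.23 with Et1. The arrays also split by the signal of poly(A) spike-in controls, probe sets for Bacillus genes; whether such RNA was added is not stated. The low set (mean log2 signal 3.45 to 3.57) is made up of Et1 replicate 2 with control replicates 1 and 2. The high set (4.75 to 5.64) holds Et1 replicates 1 and 3 with control replicate 3. Differences within each set are given beside the results.

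The first question was how the transcripts of the members stood in cultures with and without Et1. Of the members, Cemip was the 1 gene that passed the test, with 5.03 times more signal in control than in Et1 arrays. Has2, the synthase with the clearest separation, had no overlap between the groups and about 1.62 to 1.89 times more signal in control arrays. Tnfaip6 stood at 1.91 times more in control. Vcan had lower Et1 means in its 3 tested probe sets, none of which passed, while the arrays of Cd44 and Hyal2 overlapped.

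**Figure D1:**
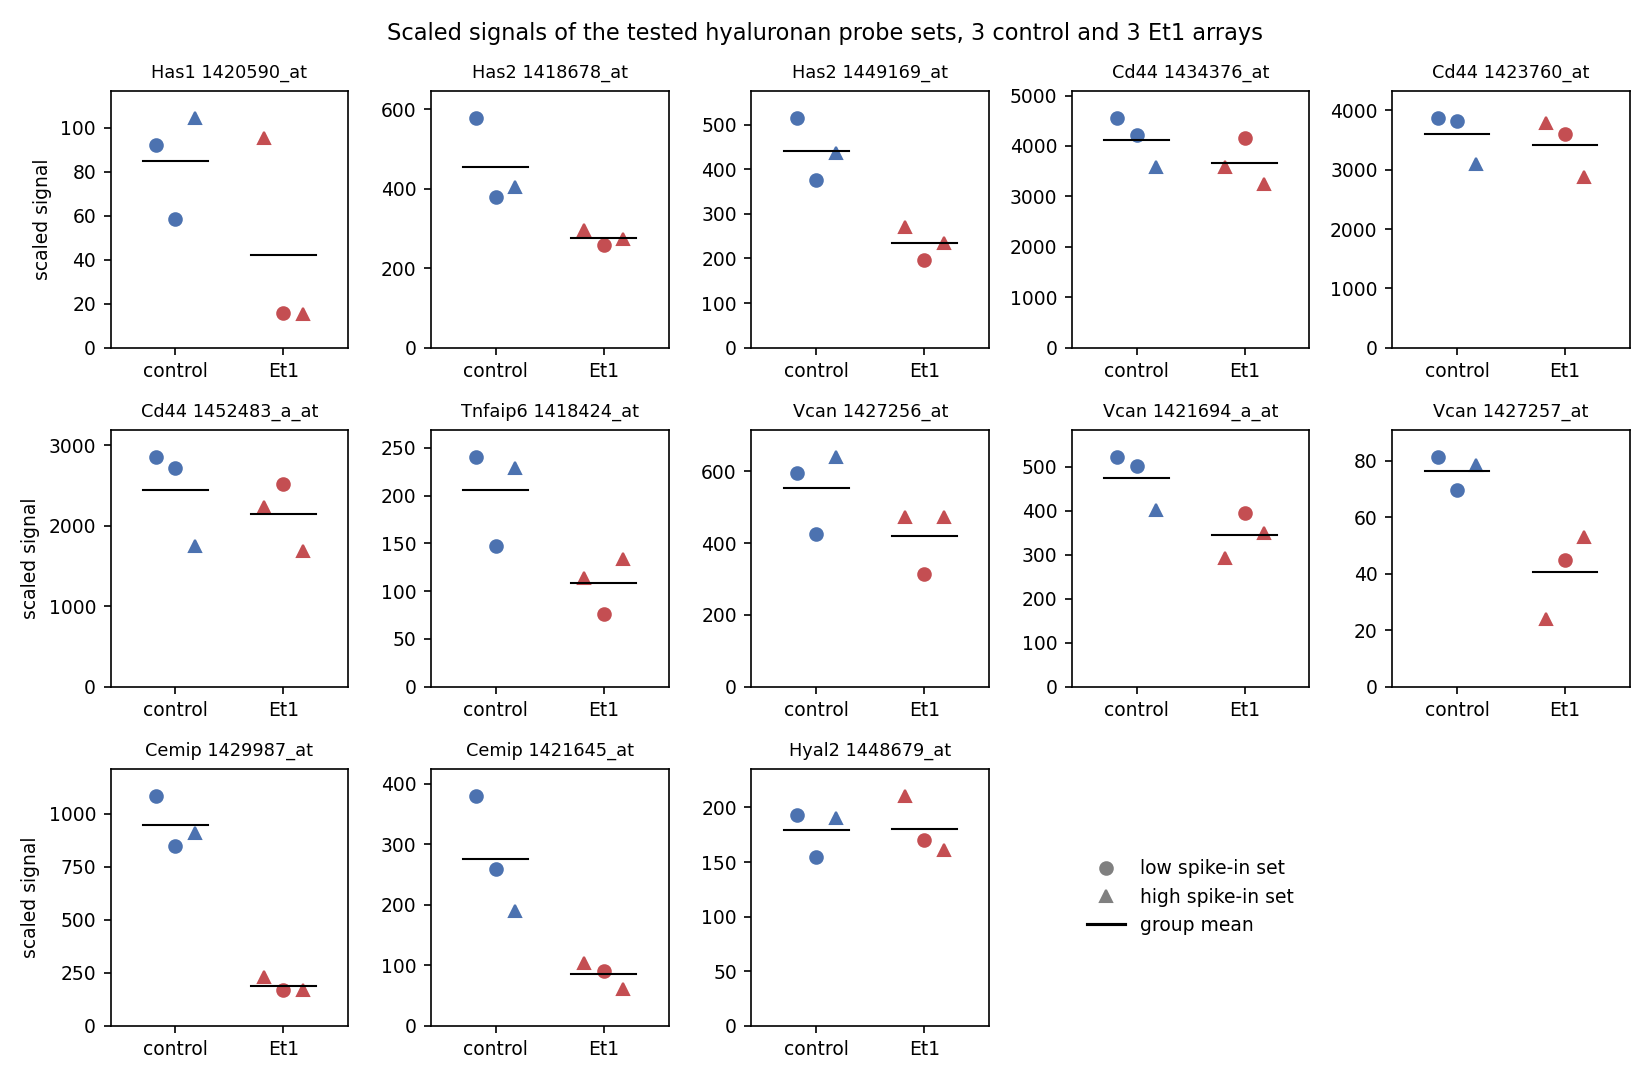
Scaled signal (linear axis from 0, array units) of each of the 13 tested probe sets of the members on 3 control (blue) and 3 Et1 (red) arrays; circles are arrays of the low and triangles of the high spike-in set, and lines are group means. For Cemip 1429987_at the control arrays sit at 847 to 1084 and the Et1 arrays at 169 to 229, while for Cd44 and Hyal2 the groups overlap.

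Among the synthases, Has2 makes long chains and is required for heart development in the embryo. Its probe set 1449169_at had signals of 515, 375 and 436 on control replicates 1, 2 and 3 and of 269, 197 and 235 on Et1 replicates 1, 2 and 3. The lowest control array thus lay above the highest Et1 array, and the log2 difference was -0.92 (SE 0.19, 95% interval -1.34 to -0.49, n = 3; limma adjusted p = 0.0928). Its other probe set, 1418678_at, read 578, 380 and 406 without Et1 and 297, 258 and 273 with it. The groups were again apart, at 455 ± 108 against 276 ± 19.6 (SD, n = 3), with a log2 difference of -0.70 (limma adjusted p = 0.191). Control replicate 1 was the highest array in both probe sets, and without it the differences were -0.80 and -0.51. In the low and then the high spike-in set 1449169_at differed by -1.16 and -0.79, and with the set in the fit it passed the threshold (-0.97, limma adjusted p = 0.0106) while 1418678_at did not (-0.69, limma adjusted p = 0.0569).

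Has1, a synthase with a low signal, read 92.0, 58.4 and 104 in control arrays. The Et1 arrays did not form a group: replicate 1 was at 95.3, among the controls, and replicates 2 and 3 were at 15.6 and 15.2. The log2 difference was -1.55 with a 95% interval from -3.09 to -0.01 (limma adjusted p = 0.405). Without Et1 replicate 1 it was -2.42, and with 50 added to every signal -0.65. Has3, which makes shorter chains, lay below the filter, with signals of 10.9 to 45.0 over the 6 arrays and a mean of 30.5, and was not tested.

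Cd44, the principal hyaluronan receptor of the cell surface, had a strong signal in 3 of 4 probe sets and overlapping groups in each. In 1434376_at the control arrays read 4554, 4226 and 3576 and the Et1 arrays 3581, 4163 and 3236. The group means were 4119 ± 498 and 3660 ± 468 (SD, n = 3), a log2 difference of -0.17 with a 95% interval from -0.50 to 0.16. The other 2 tested probe sets gave -0.07 (interval -0.42 to 0.27) and -0.17 (interval -0.68 to 0.34). The interval of 1452483_a_at thus reaches nearly to the -0.70 of Has2 1418678_at, and the difference between the genes was not tested. Within the high spike-in set 1423760_at and 1452483_a_at had differences of 0.09 and 0.15, above 0, and within the low set -0.10 and -0.14. The fourth probe set, 1443265_at, stayed at 2.25 to 6.04.

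Tnfaip6, also called TSG-6, carries a link module and moves heavy chains of inter-alpha-inhibitor onto hyaluronan. Its 1 probe set read 240, 148 and 229 without Et1 and 114, 75.9 and 134 with it. The groups were apart, but by little, since control replicate 2 lay just above Et1 replicate 3. The means were 206 ± 50.6 and 108 ± 29.6 (SD, n = 3), with a log2 difference of -0.94 (SE 0.27, 95% interval -1.55 to -0.32; limma adjusted p = 0.217). Within the low and the high spike-in set it was -1.31 and -0.89, and with the set in the fit -1.10, past the threshold (limma adjusted p = 0.0231).

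Vcan, a large chondroitin sulfate proteoglycan that binds hyaluronan through its link modules, had 8 probe sets, of which 3 were tested. In 1421694_a_at the control arrays read 522, 501 and 402 and the Et1 arrays 291, 396 and 350. These groups were apart by a narrow gap, with a log2 difference of -0.46 (95% interval -0.87 to -0.05; limma adjusted p = 0.352). In 1427256_at they overlapped, at 554 ± 113 and 420 ± 90.6 (SD, n = 3), a difference of -0.40. In 1427257_at, with 81.3, 69.7 and 78.3 without Et1 and 24.0, 44.9 and 52.9 with it, the groups were apart and the difference was -0.99, or -0.49 with 50 added to each signal. Its Et1 mean of 40.6 was under the filter, so this probe set was tested through its controls. The 5 untested probe sets read 1.29 to 35.9.

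Of the breakdown genes, Cemip had the largest difference of any member. Its probe set 1429987_at read 1084, 847 and 910 without Et1 and 229, 170 and 169 with it. All 3 Et1 arrays were far below all 3 controls, at 189 ± 34.2 against 947 ± 123 (SD, n = 3). It fell by 2.33 on the log2 scale (SE 0.18, 95% interval -2.74 to -1.92; limma adjusted p = 0.0050), and ranked 3 by p among 22519 probe sets. Within the low and the high spike-in set the difference was -2.50 and -2.21. Over the 6 fits that each left out 1 array it ran from -2.48 to -2.23, and it stayed past the threshold in each (limma adjusted p 0.0116 to 0.0462).

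The second tested probe set of Cemip, 1421645_at, read 380, 259 and 190 without Et1 and 103, 90.6 and 61.0 with it. The groups were apart here too, and the log2 difference was -1.68 (SE 0.29; limma adjusted p = 0.0622), which missed the threshold. Among the settings under which it passed were the spike-in set in the fit (-1.53, limma adjusted p = 0.0106) and leaving out control replicate 3 (-1.92, limma adjusted p = 0.0293). The remaining probe set, 1441478_at, was at 3.00 to 12.1 and was not tested. Hyal2, the hyaluronidase anchored at the cell surface, read 193, 154 and 190 without Et1 and 210, 170 and 161 with it. The groups overlapped, with means of 179 ± 21.5 and 181 ± 26.3 (SD, n = 3) and a log2 difference of 0.01 with a 95% interval from -0.40 to 0.42. That difference was below 0 with median centring (-0.04) and with the spike-in set in the fit (-0.03).

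**Figure D2:**
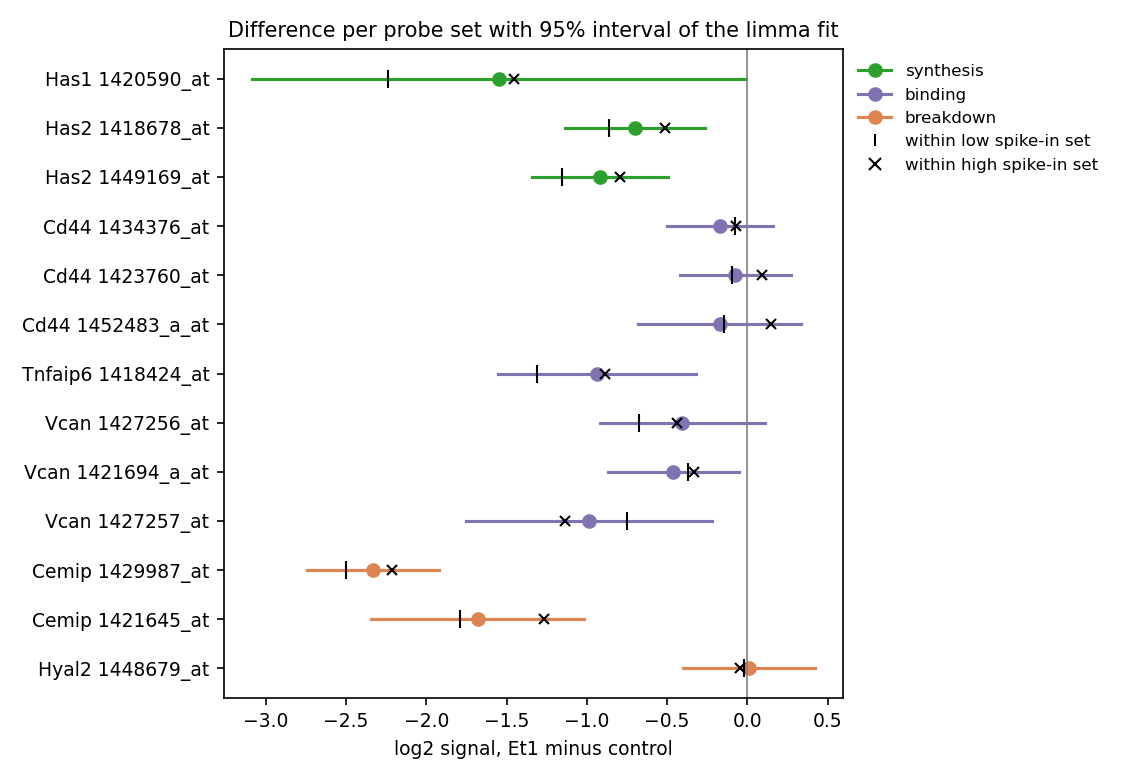
Log2 difference, Et1 minus control, of each tested probe set (dots) with the 95% interval of the limma fit (lines), coloured by role; ticks mark the difference in the low spike-in set and crosses that in the high one. The 2 Cemip probe sets lie farthest to the left, at -2.33 and -1.68, and Cd44 and Hyal2 lie around 0.

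Counted together, 13 of the 21 probe sets were tested, standing for 7 genes. By brightest probe set, 1 of the 7 genes, Cemip, passed over the whole table, and it was lower; 0.411% of the 11666 tested genes passed. Of the 7, 6 had lower Et1 means, as did 44.3% of all genes, and their median log2 difference was -0.70 against 0.05 over all genes. By probe set, 1 of the 13 passed, lower, beside 0.346% of 22519 in either direction and 0.249% lower. At an unadjusted p under 0.05 there were 8 of 13, all lower, beside 12.3% in either direction and 6.38% lower. Of the 13, 7 had groups that did not overlap, all 7 lower, where 17.6% of all tested probe sets were apart and 8.11% apart and lower. With the spike-in set in the fit 4 of 13 passed, against 3.85% of all probe sets, namely both of Cemip, 1 of Has2 and that of Tnfaip6. Since the genes were chosen with this contrast known, nothing is read from these shares.

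A comparison that did not enter the choice of the genes was that of the 2 spike-in sets, fitted with the group as a second term. Of the 13 probe sets 1 passed, and it was lower, where 16.7% of all tested probe sets passed and 9.99% did so lower. By brightest probe set 0 of the 7 genes passed, where 17.3% of all genes did, so the members' share was not above that of the table. The probe set that passed was 1452483_a_at of Cd44, which was lower in the high set by a log2 difference of -0.52 (SE 0.13, limma adjusted p = 0.0260). The other tested Cd44 probe sets had the same sign, at -0.29 and -0.22 (limma adjusted p = 0.0911 and 0.291). The signals show the same order: 1452483_a_at read 2853, 2720 and 2523 on the low set and 1753, 2238 and 1682 on the high set.

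The probe sets of Vcan differed in sign between the spike-in sets. High minus low, 1427256_at stood at 0.46 (limma adjusted p = 0.0536) and 1421694_a_at at -0.33 (limma adjusted p = 0.0836). Neither passed the threshold, and the difference between the probe sets was not tested. For Cemip, 1429987_at stood at 0.07 and 1421645_at at -0.46 (limma adjusted p = 0.808 and 0.247). Has2 stood at 0.17 and -0.03 and Tnfaip6 at 0.49 (limma adjusted p = 0.516, 0.923 and 0.151). Has1, with its low signal, had the largest difference of the members, at 0.90 (SE 0.62, limma adjusted p = 0.372). Hyal2 stood at 0.13 and Vcan 1427257_at at -0.14 (limma adjusted p = 0.650 and 0.834).

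**Figure D3:**
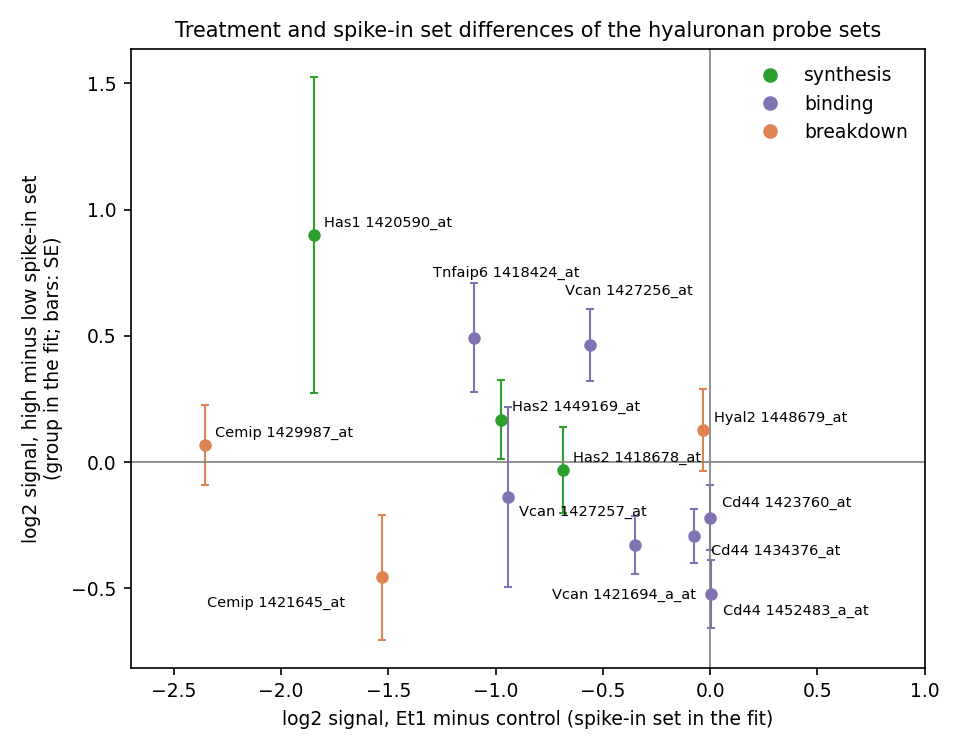
Log2 difference between Et1 and control (horizontal axis) against that between the high and low spike-in sets (vertical axis, bars are SE), from 1 limma fit with both terms, for the 13 tested probe sets. Cemip 1429987_at is far to the left at -2.35 and near 0 on the vertical axis at 0.07, while Cd44 1452483_a_at is near 0 on the horizontal axis and at -0.52 on the vertical one.

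Other genes of the pathway, listed by function, were set beside the members. Of 49 such genes 48 had a probe set and 31 were tested, and 0 passed over all probe sets in limma, by brightest or any other probe set. At an unadjusted p under 0.05 there were 5 lower and 2 higher by brightest probe set, or 7 of 31, beside 13.5% of all genes. The median log2 difference was -0.05. With the spike-in set in the fit 6 passed, 5 of them lower, beside 4.47% of all genes. Between the spike-in sets 3 genes passed by brightest probe set, all lower in the high set (Hmmr, Nf2 and Habp4). That is 3 of 31 beside 17.3% of all genes, a share by gene not above that of the table. By probe set 12 of 60 passed, in both directions, a share slightly above the 16.7% of all tested probe sets.

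The enzymes that supply sugars did not move as 1 block. Of 7 tested, 5 had lower and 2 higher Et1 means, with a median of -0.27 and 0 past the threshold. The route to UDP-N-acetylglucosamine, 1 of the 2 building blocks, runs through Gfpt1, Gnpnat1, Pgm3 and Uap1. Gnpnat1, which acetylates glucosamine 6-phosphate, read 651, 623 and 838 without Et1 and 1040, 1047 and 1283 with it. These arrays were apart and higher, with a log2 difference of 0.68 (limma adjusted p = 0.149), and its 3 tested probe sets all had higher Et1 means. Uap1, which makes the finished nucleotide sugar, read 627, 546 and 632 without Et1 and 393, 383 and 404 with it. It was apart and lower, at -0.61 (limma adjusted p = 0.129), and its 3 tested probe sets were all apart and lower. Gfpt1, the entry enzyme, stood at 466 ± 11.9 against 328 ± 44.1 (SD, n = 3; log2 difference -0.52), and Ugdh, which makes UDP-glucuronic acid, overlapped at -0.27. With the spike-in set in the fit Gnpnat1, Uap1 and Gfpt1 passed (limma adjusted p = 0.0265, 0.0128 and 0.0492).

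Of 23 further receptors and binding or linking proteins 11 were tested, with 4 lower, 7 higher, 0 past the threshold and a median of 0.28. One of the 7 higher, Bcan, named here after its values were seen, had a control mean of 37.0, under the filter, and was tested through its Et1 arrays. Hmmr, a hyaluronan-binding protein better known at the mitotic spindle, read 523, 568 and 370 without Et1 and 192, 291 and 175 with it. The groups were apart in 4 of its 5 tested probe sets, all 4 lower, with a log2 difference of -1.16 in the brightest (limma adjusted p = 0.102, and 0.00308 with the spike-in set in the fit). That probe set also differed between the spike-in sets, at -0.61 (limma adjusted p = 0.00674). Layn, a transmembrane hyaluronan receptor, stood at 0.71 with overlapping groups. Hapln4, a link protein, and Tlr2, a pattern-recognition receptor, stood at 0.54 and 0.45, or 0.31 and 0.25 with 50 added to each signal.

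The 4 cytoskeletal partners of Cd44 were all tested, with 1 higher, 3 lower and 0 past the threshold. Msn (moesin) stood at 4408 ± 39.0 and 4252 ± 384 (SD, n = 3), Ezr (ezrin) at a log2 difference of 0.29, Rdx (radixin) at -0.05 and Nf2 (merlin) at -0.13. All overlapped between the groups. Between the spike-in sets Nf2 differed by -1.11 (limma adjusted p = 8.7e-04), with 3 of its 4 tested probe sets past the threshold. Of 9 further breakdown genes 4 were tested, with 2 higher, 2 lower, 0 past the threshold and a median of -0.02. Cemip2, a membrane protein related to Cemip, stood at 473 ± 98.4 and 428 ± 101 (SD, n = 3). The log2 difference was -0.15 with a 95% interval from -0.64 to 0.35. That interval does not reach the -2.33 of Cemip, a gene selected on these arrays, and the difference between the genes was not tested. The lysosomal enzymes Hexa and Gusb stood at 0.01 and -0.05, and Hyal4 at 0.31, or 0.16 with 50 added to each signal. The control mean of Hyal4, 39.9, was under the filter, so it was tested through its Et1 arrays, of which replicate 1 was at 79.9 and replicates 2 and 3 at 39.7 and 37.5.

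Among 6 proteases that cut versican and related proteoglycans 5 were tested, with 4 lower, 1 higher and 0 past the threshold. Adamts5 read 523, 383 and 229 without Et1 and 122, 132 and 109 with it. The groups were apart in each of its 3 tested probe sets, with log2 differences of -1.56, -1.46 and -1.23 (limma adjusted p = 0.0701, 0.0532 and 0.139). Adamts1 read 391, 365 and 350 without Et1 and 230, 213 and 200.5 with it, again apart, at -0.78 (limma adjusted p = 0.0792). With the spike-in set in the fit both passed, at limma adjusted p = 0.00642 for Adamts5 in its brightest probe set and 0.00993 for Adamts1. Adamts4 and Adamts9 overlapped, at -0.34 and -0.33.

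**Figure D4:**
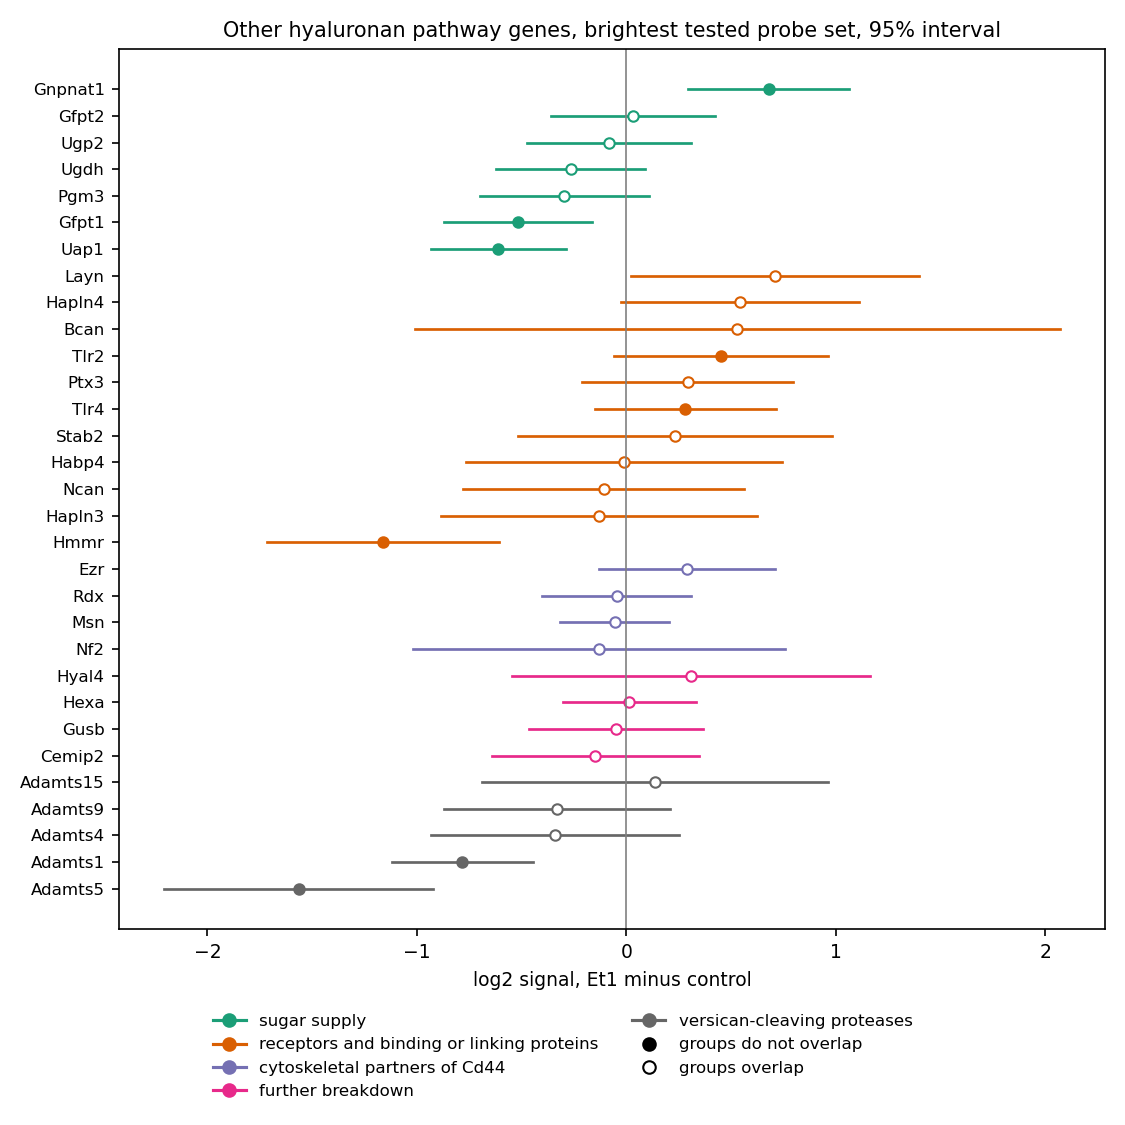
Log2 difference, Et1 minus control, with the 95% interval of the limma fit for the brightest tested probe set of the 31 other pathway genes, coloured by class; filled points mark genes whose groups do not overlap. Adamts5 and Hmmr lie farthest to the left, at -1.56 and -1.16, and Layn and Gnpnat1 farthest to the right, at 0.71 and 0.68.

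The genes whose profile over the 6 arrays lay nearest to that of Cemip 1429987_at were Lrrc17, Ccl2, Nkx2-4, Ccl7 and Prelp. Likeness was the root mean square difference of log2 signals, each centred on its own mean, over 11159 genes, and it was 0.22, 0.23, 0.26, 0.31 and 0.36. Ccl2 and Ccl7 are chemokines that attract monocytes, and Prelp is a small leucine-rich matrix protein. Nkx2-4 went from 86.3 ± 9.97 to 22.8 ± 1.88 (SD, n = 3). The Et1 means of Nkx2-4 and of Prelp (14.8) were under the filter, so both entered the comparison through their control arrays. For Has2 1418678_at the nearest were Ada, Syne3, Asb16, Pappa and Mfap2, at 0.07 to 0.08. Pappa, a protease that cuts IGF-binding proteins, went from 316 ± 59.6 to 211 ± 14.0, and Mfap2, a microfibril protein, from 383 ± 71.7 to 246 ± 17.7 (SD, n = 3). All these profiles come from the same 6 arrays, and the likeness is a description with no test.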

How the data were processed

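Messenger RNA was measured on 6 Affymetrix Mouse430_2 arrays, 3 control and 3 Et1. The authors deposited one linear-scale intensity for each probe set. The submitters' processing notes name MAS5, with no version or target level. Each array was scaled to the geometric mean of the 2% trimmed means, 4 zeros were set to the array's smallest positive value, and log2 was taken with no pseudocount. Of 45101 probe sets, 64 Affymetrix controls were left out and 22519 with a mean signal at or above 41.0 were tested with lmFit and trended eBayes of limma 3.58.1 (under R 4.3.3), without a block, and p-values were adjusted by Benjamini-Hochberg across the whole tested table (threshold 0.05). The brightest tested probe set stood for its gene. The spike-in sets were split at the largest gap in the mean log2 signal of 27 Bacillus control probe sets.

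The members, lists, settings and tests were chosen with earlier results of these data known. All member probe sets are named. Pathway genes are named if called or among the 4 smallest p-values of their class. Nearest profiles were the first 5 genes. Array intensities carry no counts, so precision comes from the arrays alone, and a fold change near the filter is sensitive to background. On simulated data for Et1 against control over 22519 probe sets, limma called 0 of 50 planted 1.5-fold, 15 of 50 planted 2-fold, 34 of 50 planted 4-fold and 33 of 50 planted 8-fold changes, and 4 unchanged ones. The simulated noise was normal, independent between arrays and probe sets, with each probe set's own SD within groups. It held no spike-in sets shared by arrays, so these rates need not hold for the real arrays. Alternatives were quantile normalization, median centring, dropping the filter, raising it to the 75th percentile, 50 added before log2, no intensity trend, each array left out, the replicate number or the spike-in set as a block, and averaging a gene's probe sets.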

Additional observations from a re-analysis of the deposited data

How the results depend on the processing

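The 13 tested probe sets of the members gave 180 values under other settings, of which 166 kept direction and side of the threshold, 8 passed it newly and 6 turned sign. Those that turned were near 0: Hyal2 (-0.042 with median centring, -0.032 with spike-in set blocked, and -0.11 to 0.088 with 1 array left out) and Cd44 (1452483_a_at at 0.0018 with spike-in set blocked, 1423760_at at -0.18 to 0.046 with 1 array left out). Cemip 1429987_at passed under every setting run. The count of all called probe sets, 78, was 44 with median centring, 40 with no filter, 7 with no intensity trend, 868 with spike-in set blocked and 4 to 229 with 1 array left out; it was lowest without control replicate 1 or 2 (4 each), highest without control replicate 3 (229), and 10, 46 and 6 without Et1 replicates 1, 2 and 3. The median difference of the member genes ran from -0.81 to -0.51 over those left-out fits. With spike-in set blocked 2 member genes and 6 pathway genes passed. Pathway genes numbered 1 (Adamts1) with the 75th percentile filter, 2 (Adamts1 and Adamts5) with probe sets averaged per gene, and 0 to 2 with 1 array left out (Hmmr and Adamts5 without control replicate 3). Between spike-in sets, 1 member gene passed with 50 added (Vcan), with the 75th percentile filter (Vcan) and with quantile normalization (Cd44). Has1 and Vcan 1427257_at were below the 75th percentile filter and have no value there. The causes were not tested.

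The design text says that cells were split into treated and control cultures, but not that equal replicate numbers mark 1 split. Deviations from the group means correlated at -0.12, 0.44 and 0.45 for numbers 1, 2 and 3, and control replicate 1 correlated best with Et1 replicate 2, at 0.33. Every control and Et1 array of the same spike-in set correlated positively, and every such pair from different sets negatively. The correlations thus went with the spike-in sets and cannot decide whether the numbers mark pairs. The main fit has no block because the design text does not settle this. With the replicate number as a block, 567 probe sets, 3 member genes (Cemip, Has2 and Tnfaip6) and 5 pathway genes passed. The member probe sets that passed newly there were 1418678_at and 1449169_at of Has2 (limma adjusted p = 0.0477 and 0.0146), that of Tnfaip6 (0.0269) and 1421645_at of Cemip (0.00649).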
